A study of Rattus norvegicus with 98 samples.

Results

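The comparison is between fluoxetine-treated (FT) and vehicle (Sham) rats in the lateral hypothalamus (LH), and it rests on 4 H3K27ac peak lists, chosen by their titles from the 94 lists of 25 brain regions analysed here. Both groups were male Long-Evans rats, from stock bought from Charles River and bred at the authors' institute. FT animals took fluoxetine at 18 mg/kg per day in the drinking water for 6 weeks from an age of 2 months. Sham animals of the same age drank water alone for the same 6 weeks. Each group had 2 replicates, and each replicate was frozen tissue punched from several pooled animals, so a p-value over libraries bears on pools and not on single animals. The Sham and FT samples of 1 replicate number were processed in parallel, and all regions of a replicate share their animals. The labels name no transgene or deletion in either group.

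Fluoxetine is a selective inhibitor of serotonin reuptake and is used as an antidepressant. The LH is a mixed population of neurons and glia that is known for orexin and melanin-concentrating hormone neurons and for its part in feeding, arousal and reward. H3K27ac is an acetylated residue of histone H3 that marks active promoters and enhancers, and a peak is a stretch of DNA at which the antibody enriched more fragments than the surroundings. In bulk tissue, a weaker peak cannot be told apart from a peak carried by fewer cells. The tissue could not be checked against marker genes, since an annotation of the Rn5 genome was not used here and loci are given by position alone.

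The FT lists and the first Sham list were alike in length, and the second Sham list was shorter, narrower and weaker. Sham replicate 1 held 49887 peaks and Sham replicate 2 held 32408, against 48416 in FT replicate 1 and 47946 in FT replicate 2. The length covered by peaks was 83.1 Mb and 46.4 Mb in the Sham libraries and 82.9 Mb and 80.2 Mb in the FT libraries. The median peak width was 1700 bp in Sham replicate 1 and in both FT libraries, and 1400 bp in Sham replicate 2. Sham replicate 2 therefore stood below the other 3 libraries, and Sham replicate 1 lay among or above the FT values. Over all regions, 32 of the 47 Sham lists were longer than that of Sham replicate 2 in LH, and 2 were longer than that of Sham replicate 1. Sequencing depth is unknown because the lists hold no read counts.

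Peaks were strongest in the FT libraries and weakest in Sham replicate 2. The median maxScore, the highest value of the peak caller's filter within a peak, was 103.9 and 71.2 in the first and second Sham library, and 130.2 and 120.3 in the first and second FT library. The median −log10 p-value was 14.9 and 9.6 in Sham against 16.6 and 16.4 in FT. Peaks at the upper limit of the p-value, a −log10 of 200, made up 7.56% and 1.82% of the Sham lists and 9.11% and 9.43% of the FT lists. Both FT libraries were above both Sham libraries in these 3 measures (exact two-sided permutation p of 0.333 for the median maxScore and the share at the limit, the smallest that n = 2 per group allows), and the FT libraries were closer to Sham replicate 1 than the Sham libraries were to each other. The scores depend on the library and were used below only to rank peaks within a list.

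**Figure D1:**
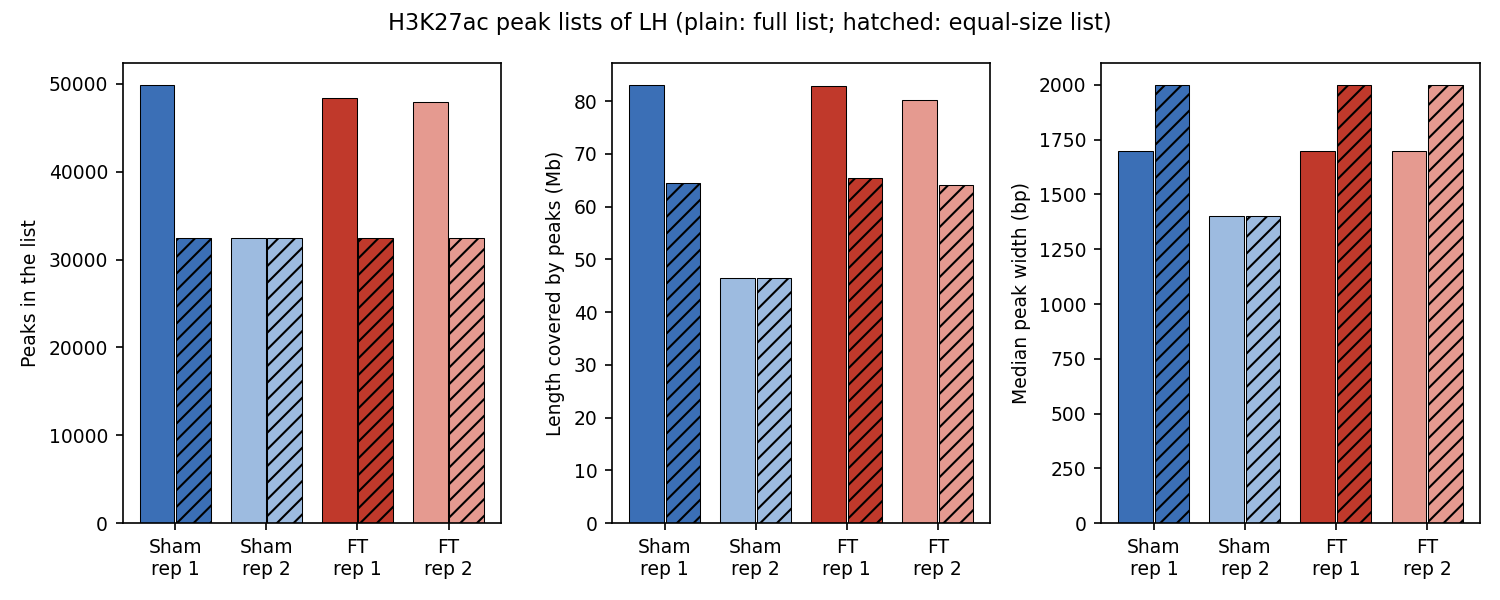
Bars give the number of peaks, the length covered by peaks in Mb and the median peak width in bp for each of the 4 LH libraries, plain for full lists and hatched for lists of equal size. Sham replicate 2, with 32408 peaks and 46.4 Mb, lies below the other 3 libraries, and its median width stays at 1400 bp against 2000 bp when every list holds 32408 peaks.

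The first question was whether fluoxetine changed the number or extent of acetylated sites. The FT libraries held 48181 ± 332 peaks (SD, n = 2) and the Sham libraries 41148 ± 12360 (SD, n = 2), a log2 ratio of 0.23 with an exact two-sided permutation p of 1. The ratio was -0.04 between the replicate 1 libraries and 0.57 between the replicate 2 libraries, so the higher FT value was present in 1 of the 2 pairs. For the covered length the log2 ratio was 0.33 (exact permutation p of 1, two-sided, n = 2 per group), and for the median width it was 0.13 with the same p. Without Sham replicate 2 the log2 ratios were -0.05 for the number of peaks, -0.03 for the covered length and 0 for the median width. With 2 libraries against 2, the smallest two-sided p is 0.333, so no such difference could pass a threshold of 0.05.

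Lists of equal size were made by keeping the 32408 peaks with the highest maxScore in each library, the length of the shortest LH list. The list of Sham replicate 2 was left whole by the cut, and the other lists still covered more. The Sham lists then covered 64.4 Mb and 46.4 Mb, and the FT lists 65.5 Mb and 64.1 Mb. The median width rose to 2000 bp in the 3 cut lists, and the gap to Sham replicate 2 was larger than on full lists. The peaks removed had the lowest maxScore and were narrower than those kept, so the cut itself widened the gap.

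Positions were compared in consecutive 1 kb windows of the genome, each counted as occupied when at least 50% of it lay in peaks. On full lists the Sham libraries occupied 83088 and 46434 windows, and the FT libraries 82775 and 79995. Of the 103768 windows occupied in any LH library, 39947 (38.5%) were occupied in all 4. On equal-size lists 81817 windows were occupied in any library and 37400 (45.7%) in all 4. These windows held by all 4 libraries were the largest single class on either kind of list.

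The most frequent way for a window to be missed was its absence from Sham replicate 2 alone. On full lists this held for 25447 windows (24.5% of those occupied in any library), while 586 windows were absent from Sham replicate 1 alone, 542 from FT replicate 1 alone and 775 from FT replicate 2 alone. On equal-size lists 16135 windows (19.7%) were absent from Sham replicate 2 alone. In the other libraries such windows lay in peaks of medium strength: on full lists the median percentile of maxScore within the list was 51.0 in Sham replicate 1 and 49.4 and 49.1 in the FT libraries. Windows occupied in a single library were weak in every library, with a median percentile of 20.2 for those in Sham replicate 2 alone, 20.8 for Sham replicate 1, 23.3 for FT replicate 1 and 21.7 for FT replicate 2.

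**Figure D2:**
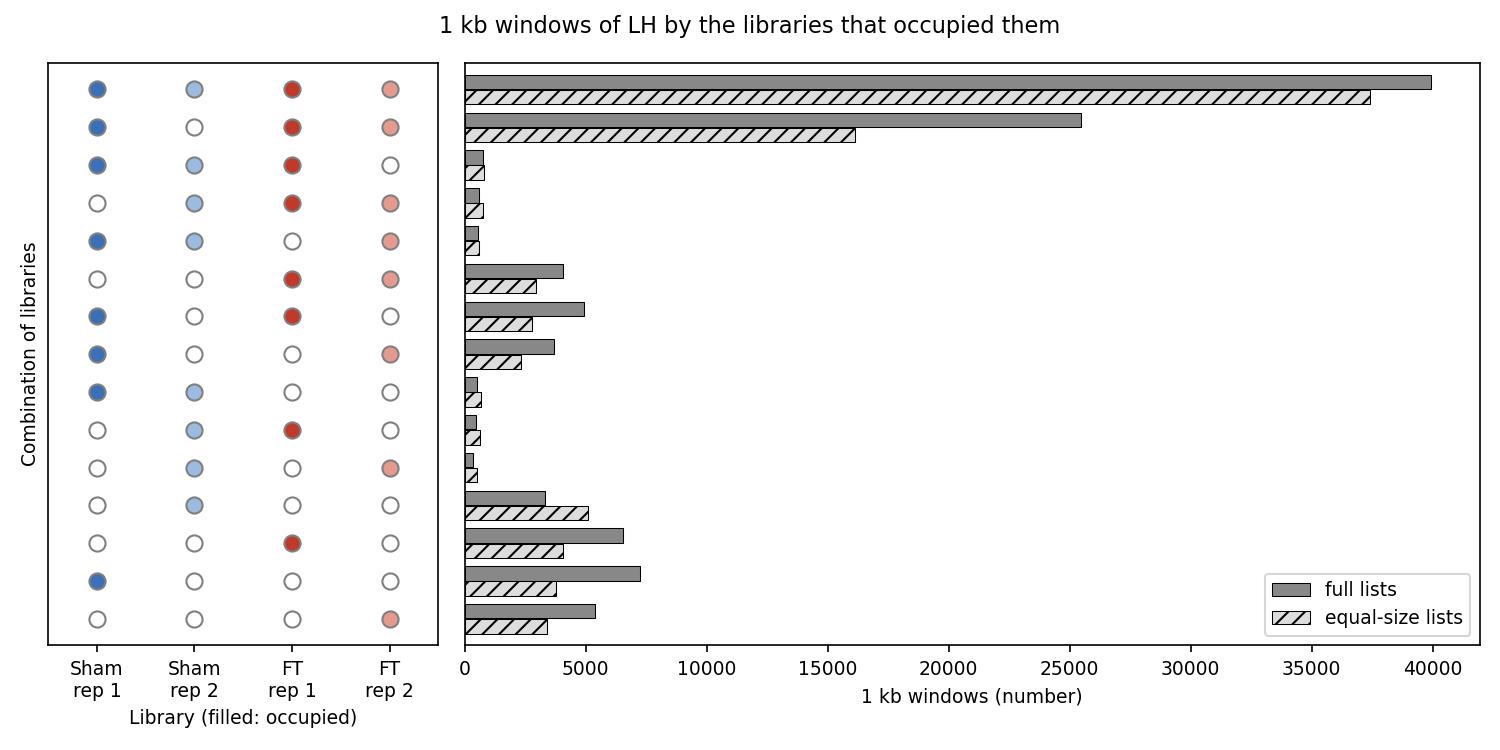
Each line of circles is 1 of the 15 combinations of LH libraries, with filled circles for the libraries that occupied a window, and the bars give the number of 1 kb windows with that combination, in grey for full lists and hatched for equal-size lists. After the windows held by all 4 libraries, the longest bars are those of windows absent from Sham replicate 2 alone, at 25447 and 16135.

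Agreement between libraries was measured with the Jaccard index, the windows occupied in both libraries as a fraction of those occupied in either. On equal-size lists the index was 0.791 between the FT libraries, 0.784 between Sham replicate 1 and FT replicate 1, and 0.784 between Sham replicate 1 and FT replicate 2. It was 0.552 between the Sham libraries, 0.548 between Sham replicate 2 and FT replicate 1, and 0.551 between Sham replicate 2 and FT replicate 2. Sham replicate 1 was therefore nearly as close to either FT library as the FT libraries were to each other, and far from its own replicate. The mean index of the same-treatment pairs exceeded that of the FT and Sham pairs by 0.00536, and arranging the libraries by replicate number or crosswise gave -0.00119 and -0.00418. The exact permutation p over these 3 arrangements was 0.333, the smallest they can give. On full lists the same difference was 0.000685 by treatment and 0.00522 by replicate number.

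The 4 lists could also be placed among all 94, with every list cut to the 19378 best peaks of the shortest one. The nearest list to Sham replicate 1 was FT replicate 2 of LH, at an index of 0.805, and the nearest to each FT library was the other FT library of LH, at 0.811. Sham replicate 2 had its own region as nearest neighbours too, but at a lower level, with 0.626 to Sham replicate 1, 0.623 to FT replicate 2 and 0.616 to FT replicate 1. Seen from those 3 libraries, Sham replicate 2 stood at place 35, 33 and 32 among all other lists.

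Windows that differed with treatment were those occupied in both libraries of a group and in neither of the other. On full lists 4067 windows were occupied in both FT libraries and neither Sham library (3.92% of 103768), and 502 in both Sham libraries and neither FT library (0.484%). On equal-size lists 2929 windows were higher in FT (3.58% of 81817) and 659 were higher in Sham (0.805%). Of the differing windows, 89.0% on full lists and 81.6% after the cut were thus higher in FT.

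A like excess appeared when the libraries were arranged without regard to treatment, and in each arrangement the pair that held Sham replicate 2 had fewer windows. On full lists 4942 windows were held by the replicate 1 libraries alone and 327 by the replicate 2 libraries alone. In the crossed arrangement 3688 windows were held by Sham replicate 1 and FT replicate 2 and 457 by Sham replicate 2 and FT replicate 1. In total 4569 windows separated the treatments, 5269 the replicate numbers and 4145 the crossed pairs. The log2 ratio of the treatment count to the mean of the other 2 counts was -0.04, and the exact permutation p over the 3 arrangements (one-sided) was 0.667. The treatment count was therefore not larger than the count between replicate numbers.

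On equal-size lists the treatment count was the largest of the 3, by a small margin. It was 3588, against 3261 by replicate number and 2960 crosswise, a log2 ratio of 0.21 with an exact permutation p of 0.333, the smallest that 3 arrangements allow. The excess lay on both sides, since the pair without Sham replicate 2 held 2929, 2765 and 2333 windows and the pair with it held 659, 496 and 627. With 3 libraries left, the pair was set against the lone library in each arrangement. The ratio on equal-size lists then turned to -1.04 without FT replicate 1 and -0.96 without FT replicate 2, and leaving out the first or the second Sham library gave 1.72 and 0.11. The corresponding ratios on full lists were -1.10, -0.98, 1.55 and 0.13. Of the 21 regions with 4 lists, LH stood at place 17 by this ratio, counted from the highest, with either kind of list.

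**Figure D3:**
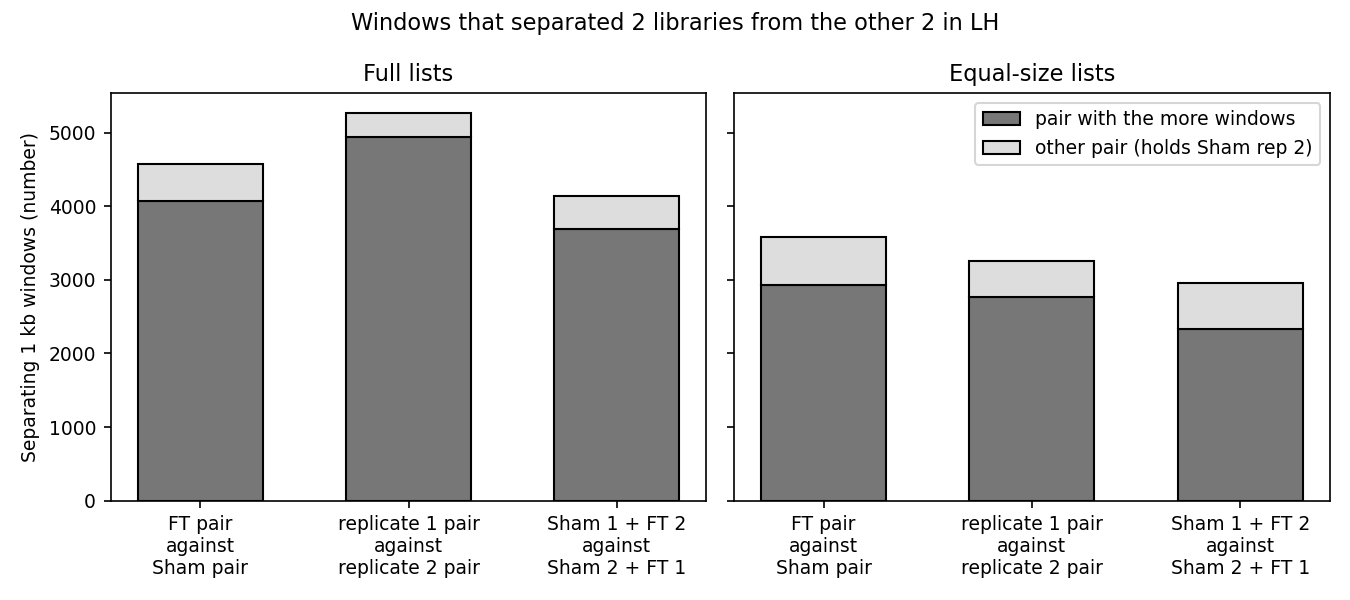
Bars give the number of 1 kb windows occupied in both libraries of a pair and in neither of the other, for the 3 ways to pair the LH libraries, with the pair that lacks Sham replicate 2 in dark grey. The treatment total is 4569 on full lists, between 5269 by replicate number and 4145 crosswise, and 3588 on equal-size lists, above 3261 and 2960.

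Full and equal-size lists named different windows in many cases. Of the windows higher in FT, 1767 were called on both, which is 43.4% of the full-list windows and 60.3% of the equal-size windows. Of those higher in Sham, 216 were called on both, 43.0% of the full-list and 32.8% of the equal-size windows. The equal-size call could depend on the cut itself: of the 2929 windows higher in FT, 39.7% were occupied in Sham replicate 1 once its full list was used. Of the 659 windows higher in Sham, 46.3% were occupied in both FT libraries on full lists.

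How often a differing window lacked any base of a peak in the other group depended on the lists. Of the 2929 equal-size windows higher in FT, 93 (3.18%) held no base of any Sham peak on full lists, 57.6% held part of a peak of Sham replicate 1 alone, and 38.8% held part of a peak of both. Of the 659 windows higher in Sham, 1.52% held no base of any FT peak. By replicate number and crosswise, the windows with no such base made up 3.04% and 3.43% of those held by the pair without Sham replicate 2. Among the 4067 windows called on full lists, which reach weaker peaks, 38.1% held no Sham base, against 43.1% by replicate number and 44.4% crosswise. Of the 502 windows higher in Sham on full lists, 41.4% held no FT base.

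The position of the differing windows was described by their distance to shared windows. On equal-size lists 35.5% of the windows higher in FT adjoined a window occupied in all 4 libraries, and their median distance to one was 6 kb. Of the windows higher in Sham 19.3% adjoined such a window, at a median distance of 14 kb, beside 20.1% and 13 kb for windows occupied in any single library. The arrangement by replicate number gave 36.2% and 16.9%, and the crossed one 29.3% and 22.8%, so each treatment share lay between those of the other arrangements. On full lists the 2 directions were alike, with 28.0% and 29.7% adjoining. There the arrangement by replicate number gave 23.6% and 29.4%, and the crossed one 21.2% and 37.2%. The share of windows higher in FT was thus above both on full lists, and that of windows higher in Sham lay between them.

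The differing windows lay in weaker peaks than the shared ones, and so did the separating windows of the other arrangements. On full lists the peaks at windows higher in FT had a median maxScore percentile of 33.3 in FT replicate 1 and 33.2 in FT replicate 2. The peaks at windows higher in Sham stood at 30.7 and 29.9 in the Sham libraries, while windows occupied in all 4 libraries reached 79.9 in Sham replicate 1. On equal-size lists the percentiles, still counted within the full list, were 48.9 and 49.0 for windows higher in FT and 44.0 and 30.04 for windows higher in Sham. For the replicate 1 pair they were 31.4 in Sham and 28.8 in FT on full lists, and 50.4 and 48.6 on equal-size lists. For the crossed pair of Sham replicate 1 and FT replicate 2 they were 30.9 and 29.1, and 48.8 and 46.4. The share of occupied windows that were higher in FT on equal-size lists ran from 2.82% on chromosome X to 4.33% on chromosome 11.

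Most differing loci were 1 window long. The 1767 windows higher in FT on both kinds of list formed 1732 loci, of which 1697 (98.0%) were single windows and 35 had 2 windows. The 216 windows higher in Sham formed 216 single windows. In 75 FT loci and 10 Sham loci the full lists of the other group held no peak base. Over all 1732 FT loci the median number of other regions with an occupied window was 12, and over all 216 Sham loci it was 11.

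The loci described first lay within 2 kb of windows occupied in all 4 libraries (Rn5, counted from 1). At chr10:37388001-37390000 peaks covered 100% of the locus in both FT libraries, 19.6% in Sham replicate 1 and 8.2% in Sham replicate 2. At chr8:45181001-45183000 they covered 100% and 89.9% in FT, 21.75% in Sham replicate 1 and none in Sham replicate 2. At chr1:90535001-90537000 they covered 94.8% and 84.05% in FT, 18.95% in Sham replicate 1 and none in Sham replicate 2. These 3 loci had the largest gaps of the longest 8, while FT above Sham was set by the rule that chose the loci. The 3 loci were occupied in 18, 8 and 15 of the 24 other regions.

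The other FT loci of the longest 8 showed smaller gaps. The strongest lay at chr18:60458001-60460000, in peaks at percentile 96.0 and 96.7 of the FT lists, and was covered to 75.3% and 51.6% in FT and to 23.3% and 11.4% in Sham. The locus at chr10:66547001-66549000 was covered to 65% and 100% in FT and to 45% and 18.2% in Sham, and it was occupied in all 24 other regions. At the loci chr5:146139001-146141000, chr12:18529001-18531000 and chr5:125825001-125827000, coverage was 60% to 75% in FT, 40% to 45% in Sham replicate 1 and 0 in Sham replicate 2. All 8 loci were thus partly covered in Sham replicate 1.

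Among the 8 strongest loci higher in Sham, some windows lay close to the 50% limit of occupancy in both groups and others did not. At chr2:224590001-224591000 peaks covered 59.9% and 58.9% of the window in Sham and 49.9% in each FT library. At chr3:169573001-169574000 they covered 55.9% and 50% in Sham and 44.2% and 48.8% in FT. The widest gap among the 8 was at chr7:137561001-137562000, with 59.9% and 57.8% in Sham against 19.9% and 48.7% in FT. At chrX:28986001-28987000 they covered 52.6% and 73.5% in Sham and 43.9% and 44.1% in FT. All 8 windows adjoined a window occupied in all 4 libraries, so each lay beside a shared stretch. Of all 216 windows higher in Sham on both kinds of list, 138 adjoined such a window.

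Peak width was compared on elements, stretches of DNA covered by the joined peaks of the libraries. Of the 60721 elements in any full LH list, 27561 (45.4%) held a peak of all 4. At these elements the median peak width was 2000 bp and 1500 bp in the Sham libraries and 2100 bp and 2000 bp in the FT libraries. Sham replicate 2 was narrower than Sham replicate 1 at 93.3% of the elements, with a median difference of -400 bp. Each FT library had a median difference of 0 bp to Sham replicate 1. FT replicate 1 was wider than Sham replicate 1 at 44.7% of the elements and narrower at 25.8%, and FT replicate 2 was wider than Sham replicate 1 at 34.3% of the elements and narrower at 35.3%.

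Both FT libraries were wider than both Sham libraries at 6366 elements (23.1% of 27561), and both Sham libraries were wider at 206 (0.747%). The replicate 1 libraries were wider than the replicate 2 libraries at 6323 elements and narrower at 136, nearly the same counts without a difference in treatment. Crosswise the counts were 3396 and 274. Leaving out Sham replicate 2 gave 10154 elements wider in both FT libraries and 8041 wider in Sham replicate 1. The gap of Sham replicate 2 was largest at weak elements: among the weakest 25% of elements its median width was 1000 bp against 1600 bp in each of the others, and among the strongest 25% it was 2100 bp against 2400 bp.

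The strength of shared elements was compared as the percentile rank of the Norm-tag-count, the peak caller's normalised tag count, within each library. Over the 27561 elements the Spearman correlation of these ranks was 0.966 between the FT libraries, 0.959 and 0.961 between Sham replicate 1 and the FT libraries, and 0.861 between the Sham libraries. The scale was coarse, since the counts were rounded to whole numbers. In Sham replicate 2 the ranks took 24 distinct values and 78.5% of the elements stood at the 3 commonest, while in the other libraries 44.7% to 51.6% did.

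No element passed the test of rank between treatments. limma called 0 elements higher in FT (0% of 27561) and 0 higher in Sham (0%) at a Benjamini-Hochberg adjusted p of 0.05, and the lowest adjusted p was 0.699. At an unadjusted p of 0.05, limma gave 675 elements higher in FT and 613 higher in Sham, and with the replicate number as a block 314 and 421, with 0 called. In either fit both directions together made up less than a fraction of 0.05 of the 27561 elements. That fraction would pass such a p by chance alone, so the counts of these fits are no sign of a difference. Other fits exceeded it, with 0 called. Elements above the median count gave 466 higher in FT and 608 in Sham of 12891 (lowest adjusted p of 0.065 by limma). Equal-size lists gave 742 and 695 of 23974, and quantile-normalised counts 705 and 735 of 27561. Summed counts and maxScore ranks stayed below it, with a lowest adjusted p of 0.062 for the sums by limma. The source of the excess was not tested. The median absolute difference between the FT and Sham means was 5.25 percentile points, between the FT libraries 3.69 and between the Sham libraries 6.82. The first value compares means of 2 libraries and the others compare single libraries, which vary more than means. The 3 values are therefore not on the same scale and do not place the treatment difference within the replicate spread. Sham replicate 1 differed from the FT mean by a median of 3.91 points and Sham replicate 2 by 7.62, so the FT mean lay nearer to Sham replicate 1 than to Sham replicate 2.

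Leaving out either Sham library gave calls. Set against the FT pair alone, Sham replicate 2 gave 2987 elements higher in FT and 3250 higher in Sham of 27813 tested, and Sham replicate 1 gave 40 and 321 of 40376, each with a lone library taken to vary like the FT pair. Without FT replicate 1 or FT replicate 2, 0 elements were called.

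**Figure D4:**
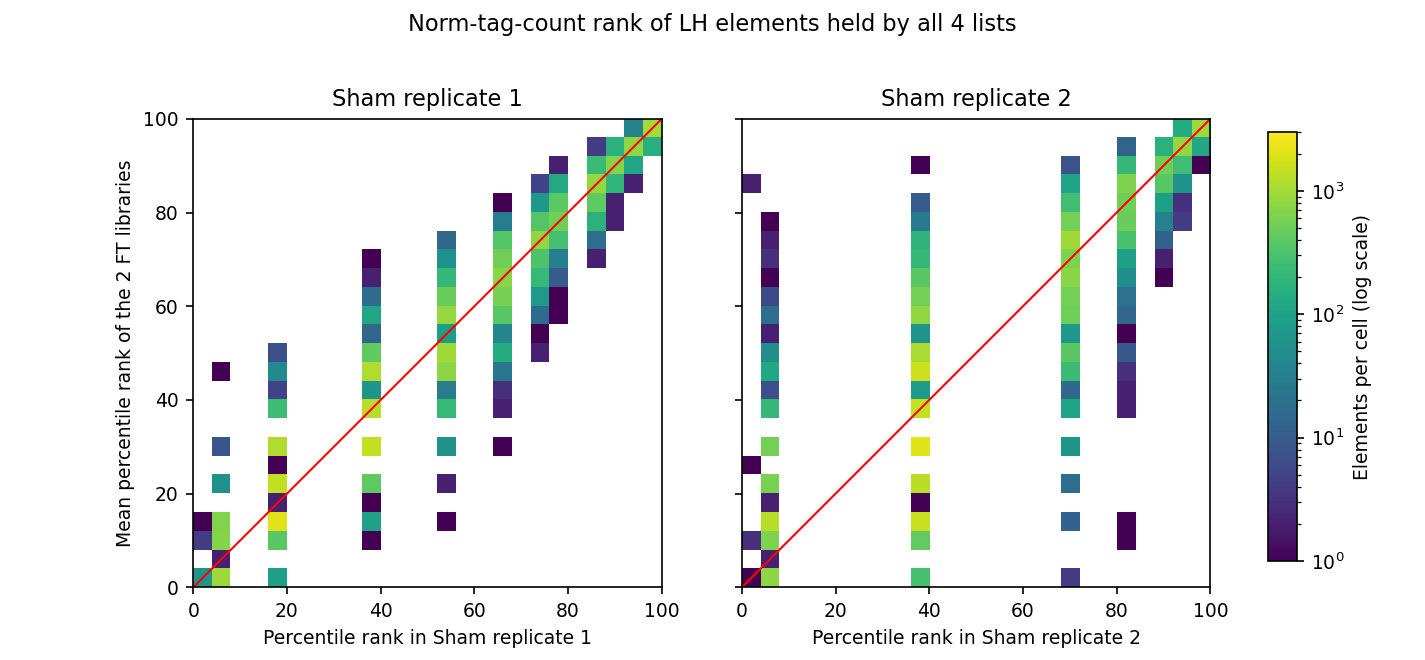
Each panel plots the percentile rank of the Norm-tag-count in 1 Sham library against the mean percentile rank of the FT libraries over 27561 LH elements, with colour for the number of elements per cell on a log scale and a red line of equality. Sham replicate 1 follows the line more closely than Sham replicate 2, with median differences of 3.91 and 7.62 points, and the columns are the steps of the rounded counts.

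The 5 elements of each direction with the lowest p had an adjusted p of 0.699 by limma. At chr8:60160336-60161990 the Norm-tag-count was 10 and 5 in Sham and 16 and 14 in FT, and the percentile rank was 84.1 and 82.8 in Sham against 91.1 and 89.7 in FT. The difference was 6.91 ± 1.43 points (SE). At chr10:84775613-84777908, a weaker element, the count was 4 and 2 in Sham and 6 in each FT library, a rank difference of 31.6 ± 7.41 points (SE). On the Sham side, the element at chr1:30666705-30669121 had counts of 11 and 6 in Sham and 10 in each FT library, and its rank was lower in FT by 10.4 points, with a SE of 2.07. The rank differences of the other named elements ran from 5.03 to 6.22 points where FT was higher and from -4.99 to -2.55 points where Sham was higher. At all 3 elements the ranks of the groups did not overlap. The same held at 5352 elements higher in FT (19.4%) and 6151 higher in Sham (22.3%). The arrangement by replicate number gave 3929 (14.3%) and 3627 (13.2%), and the crossed one 4868 (17.7%) and 3581 (13.0%). Treatment thus gave the most such elements of the 3 arrangements, a difference that was not tested. Tied ranks bear on these counts, since 78.5% of the elements in Sham replicate 2 stood at its 3 commonest values.

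Windows that differed in LH were nearly all acetylated elsewhere in the brain, as were LH windows in general. On equal-size lists 2922 of the 2929 windows higher in FT (99.8%, 95% Wilson interval 99.5% to 99.9%) were occupied in at least 1 library of the 24 other regions, whose full lists were used. The same held for 655 of the 659 windows higher in Sham (99.4%, 95% Wilson interval 98.4% to 99.8%). Of all windows occupied in any LH library, 98.2% were, and of the windows held by the pair without Sham replicate 2, 99.7% by replicate number and 99.9% crosswise. On full lists the counts were 4034 of 4067 (99.2%) and 488 of 502 (97.2%), beside 97.7% of all LH windows. Neighbouring windows share peaks, so the intervals cover counting error only.

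The differing windows were less widely occupied than its shared windows. On equal-size lists a window higher in FT was occupied in a median of 14 other regions and a window higher in Sham in 16, while a window held by all 4 LH libraries was occupied in 24. By replicate number the medians were 16 and 15, and crosswise 17 and 14, so this held for separating windows of any arrangement. All 24 other regions held 6.52% of the windows higher in FT and 72.8% of those held by all 4 libraries. Windows occupied in Sham replicate 2 alone were the least shared, with 77.1% found in another region, against 96.6% to 98.0% of those in 1 of the other libraries alone. Windows higher in FT were occupied to 85.8% in Snt, the nucleus of the solitary tract, to 83.4% in Raphe and to 34.0% in PAG, the periaqueductal gray, and the corresponding shares of all LH windows were 88.3%, 88.0% and 60.2%. These are the extremes among the 24 regions for all LH windows too, and the number and length of the lists differed between regions. Windows higher in Sham were occupied to 79.1% in VTA, the ventral tegmental area, and to 77.2% in VMH, the ventromedial hypothalamus, beside 86.9% and 83.1% of all LH windows.

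**Figure D5:**
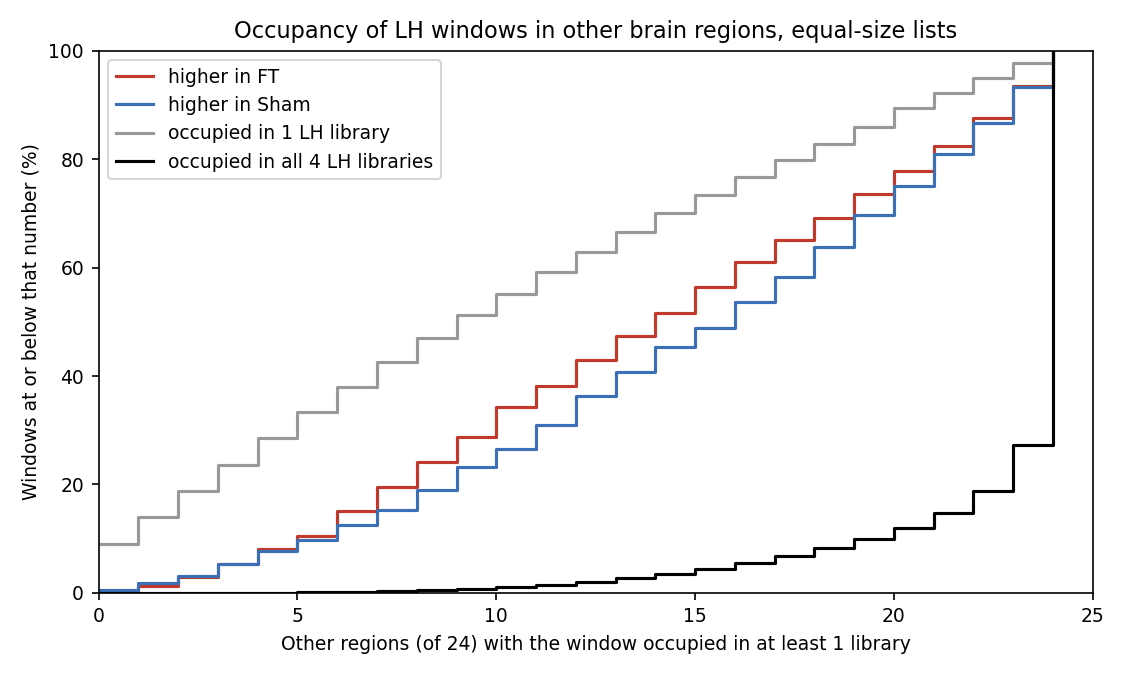
The curves give the cumulative percentage of LH windows, on equal-size lists, occupied in at most the number of other regions on the horizontal axis. The FT and Sham curves run close together, with medians of 14 and 16 regions, between windows of a single LH library and windows of all 4, whose median is 24.

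In the other regions, the LH windows of either direction were occupied more often in FT than in Sham. Over the 20 other regions with 4 lists, the FT share minus the Sham share of the windows higher in FT in LH was above 0 in 18 regions, with a median of 15.2 percentage points. For the windows higher in Sham in LH it was also above 0 in 18 regions, with a median of 11.8 points. For all windows occupied in LH it was above 0 in 18 regions as well, with a median of 9.65 points. For the pair without Sham replicate 2 the median was 15.5 points by replicate number and 14.9 crosswise. For the pair with Sham replicate 2 it was 12.7 and 13.2 points, and each of these was above 0 in 18 regions. All these sets thus leaned to FT elsewhere, and the lean was not particular to windows that differed with treatment. The regions share pooled animals and are not independent.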

How the data were processed

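H3K27ac ChIP-seq of rat LH was analysed from 2 Sham and 2 FT peak lists, with 90 lists of other regions for comparison. The authors aligned reads to Rn5 (the submitters' notes name BWA, with no version) and called the peaks of every library on its own with DFilter. Per the file headers, maxScore and Norm-tag-count are scores, the second rounded to whole numbers. The deposited −log10 p-value ran from 4 to 200, and the deposited false discovery rate, a percent, was 0 for every peak. The lists give no read counts, and library depth is therefore unknown. The study tested read counts per peak, and occupancy was compared here instead.

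Windows, widths and ranks were computed with Python 3.11.15, numpy 2.4.6, pandas 2.3.3 and scipy 1.17.1, and ranks were tested with limma 3.58.1 in R 4.3.3. Starts were read as counted from 0 and printed from 1. Exact permutation tests ran over the 3 arrangements of the 4 libraries. Counting and limma were tested on simulated data. The limma simulation gave all 4 libraries normal noise of the FT pair's spread, without the weaker Sham replicate 2 or the tied counts. It therefore does not show how many real differences limma would find in these lists.

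The replicate number pairs the libraries, according to the study's methods, yet the replicate deviations of Sham and FT correlated at -0.04 over 27561 elements. Named loci were the 8 longest per direction called on full and equal-size lists (ties by mean maxScore percentile), and named elements came from the 5 with the lowest p per direction. Members, lists and rules were chosen with earlier results of these data known. Alternatives are listed in the closing section. The input libraries and an annotation of Rn5 were not used here.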

Additional observations from a re-analysis of the deposited data

How the results depend on the processing

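With the replicate number as a block, the log2 ratio was 0.26 for the number of peaks, 0.39 for the covered length and 0.14 for the median width, the Jaccard difference was 0.00636, and 0 elements were called by limma in either direction. The block changed no call.

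Leaving out 1 library at a time gave log2 ratios of -0.0502 to 0.57 for the number of peaks, -0.026 to 0.81 for the covered length and 0 to 0.28 for the median width. The ratio of treatment windows to the other arrangements ran from -1.10 to 1.55 on full lists and from -1.04 to 1.72 on equal-size lists, and the Jaccard difference from -0.115 to 0.242, with the negative values without an FT library. Windows higher in FT ran from 4653 to 29514 on full and from 3691 to 19064 on equal-size lists, and windows higher in Sham from 1044 to 7747 and from 1265 to 5739. With 3 libraries fewer conditions define a window, so these counts rise by construction. Elements wider in FT ran from 9238 to 25059 and wider in Sham from 481 to 8041. limma calls ran from 0 to 2987 in FT and from 0 to 3250 in Sham. The share found in other regions ran from 97.9% to 99.96% in FT and from 79.6% to 99.7% in Sham, and the share adjoining a shared window from 29.7% to 50.6% and from 9.13% to 31.9%. The lowest share in other regions among the Sham windows came without Sham replicate 1.

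On full lists, windows of 5 kb gave 265 windows higher in FT and 3 in Sham (log2 ratio 0.31), a window covered whole gave 2332 and 169 (0.16), and a −log10 p-value of at least 6 gave 288 in Sham (0.034). The sign of the full-list ratio changed in all 3, and the treatment count was the largest of the 3 arrangements in 0 of 4 settings with all libraries. On equal-size lists it was the largest in 7 of 7 settings, with ratios of 0.05 to 0.55. There, 5 kb windows gave 271 in FT and 4 in Sham, whole windows 179 in Sham, the best 10000 peaks 913 and 424, equal covered length 1569 in FT, and peak centres 1631 in FT. Elements wider in Sham numbered 81 on equal-size lists and 106 at the stricter threshold. The share in other regions was 99.2% and 97.2% on full lists, 99.3% and 96.6% with whole windows, and 100% and 99.9% with peak centres. The adjoining share was 28.0% and 29.7% on full lists, and 15.9% in FT with whole windows. Leaving out the narrow Sham list of HB, chosen after seeing the data, left 99.8% and 99.4%. With the best 10000 peaks, the coverage difference at chr1:90535001-90537000 turned to -9.475 points, and at 5 other named FT loci, those at chr10:37388001-37390000 and chr8:45181001-45183000 among them, it fell to 0. At these loci the FT peaks stood at maxScore percentiles of 47.7 to 77.4 in the full lists, below the best 10000 peaks. The cut therefore removed them. By maxScore the rank difference of the element at chr X, 107308827 to 107310126, turned to -7.08 points. The cause of the other changes was not tested.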
